A study of Mus musculus with 6 samples.

Results

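The genes described here encode histones, measured in the mouse breast tumour line 4T1 with and without the kinase inhibitor TKI258. Genes were kept when their present or older symbol began with Hist1h to Hist4h, H2af, H3f3 or H1f and when a probe set of the array carried that gene's symbol alone. This gave 44 of 19938 measured genes, namely 31 genes of the replication-dependent histone clusters (older symbols Hist1h to Hist4h) and 13 variant histone genes without such a symbol. The annotation uses the present mouse symbols (H2bc4 for Hist1h2bc, H2az1 for H2afz), so 9 members matched by their present symbol and 35 by the older one. Of 92 histone genes that the reference gene table lists under these names, 48 had no probe set of their own. Among those 48, 39 appeared only on probe sets shared with other genes and 9 on none.

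The study compared 3 dishes given 500 nM TKI258 with 3 dishes given its vehicle DMSO, each for 16 h. All dishes held the same 4T1 line, seeded at 750000 cells per 10 cm dish and grown for 24 h in medium with 10% serum before treatment. TKI258 (dovitinib) blocks several receptor tyrosine kinases, those for FGF, VEGF and PDGF among them. Total RNA was amplified, labelled with biotin and hybridised to Affymetrix arrays, 1 array per dish. Values are log2 signals, and differences are TKI258 minus DMSO.

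Histones package DNA into nucleosomes, with H2A, H2B, H3 and H4 in the core and H1 on the linker. Most of the supply for newly copied DNA comes from many near-identical clustered genes that are switched on in S phase by the NPAT and cyclin E/CDK2 axis. Their mRNAs normally end in a stem-loop bound by SLBP and carry no poly(A) tail, whereas most variant histone genes have introns, give polyadenylated mRNA and are read throughout the cell cycle. A few clustered genes are also known to give polyadenylated transcripts. The labels name a MessageAmp III kit for the amplification. Kits of that family as usually run prime on poly(A) tails, but which primer was used here is not stated in the labels. How much of a clustered gene's signal came from tailed and from untailed RNA was not measured.

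The promoters of genes on which the results turn are shown first, to compare clustered genes that fell (H2ac4, H2bc3, H4c6, H1f5) with one that rose (H1f2) and with the pair of H2A.Z genes. Each sequence runs 5′ to 3′ from 250 bases before to 50 bases after the start of the gene in RefSeq, build GRCm38.p6. Capitals mark exact matches, on either strand, to TATAAA (a form of the TATA box), CCAAT or ATTTGCAT (the octamer of H2A and H2B promoters). They also mark TTTNNCGC (an E2F-type site) and GGTCCG (part of an H4 promoter element). Other strings are unmarked and were not counted, such as tatatata in H1f2 and H4c6.
H2ac4, chr13:23750838-23751137, plus strand: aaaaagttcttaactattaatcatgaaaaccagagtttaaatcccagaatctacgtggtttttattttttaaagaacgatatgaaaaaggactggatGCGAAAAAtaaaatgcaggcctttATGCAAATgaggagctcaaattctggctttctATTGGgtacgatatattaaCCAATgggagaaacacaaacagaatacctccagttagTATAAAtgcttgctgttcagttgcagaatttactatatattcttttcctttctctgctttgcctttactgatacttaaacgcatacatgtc
H2bc3, chr13:23746484-23746783, plus strand: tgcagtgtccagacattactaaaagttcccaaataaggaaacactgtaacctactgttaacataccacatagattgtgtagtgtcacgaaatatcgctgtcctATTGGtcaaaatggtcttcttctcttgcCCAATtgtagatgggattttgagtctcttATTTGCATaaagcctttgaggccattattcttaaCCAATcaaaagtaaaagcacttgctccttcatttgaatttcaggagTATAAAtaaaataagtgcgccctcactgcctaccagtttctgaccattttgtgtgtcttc
H4c6, chr13:23551619-23551918, minus strand: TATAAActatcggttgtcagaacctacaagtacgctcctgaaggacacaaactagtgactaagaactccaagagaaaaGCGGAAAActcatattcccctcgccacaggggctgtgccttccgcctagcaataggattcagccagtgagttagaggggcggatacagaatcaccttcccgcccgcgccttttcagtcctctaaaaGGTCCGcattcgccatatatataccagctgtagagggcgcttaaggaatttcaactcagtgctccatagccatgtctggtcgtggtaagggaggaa
H1f5, chr13:21780576-21780875, minus strand: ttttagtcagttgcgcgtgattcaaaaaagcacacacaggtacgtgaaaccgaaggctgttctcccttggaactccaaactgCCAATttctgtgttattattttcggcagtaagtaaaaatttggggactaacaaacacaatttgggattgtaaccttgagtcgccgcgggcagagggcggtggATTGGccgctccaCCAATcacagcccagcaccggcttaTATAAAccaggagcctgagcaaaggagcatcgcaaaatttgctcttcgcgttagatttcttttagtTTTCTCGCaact
H1f2, chr13:23738557-23738856, plus strand: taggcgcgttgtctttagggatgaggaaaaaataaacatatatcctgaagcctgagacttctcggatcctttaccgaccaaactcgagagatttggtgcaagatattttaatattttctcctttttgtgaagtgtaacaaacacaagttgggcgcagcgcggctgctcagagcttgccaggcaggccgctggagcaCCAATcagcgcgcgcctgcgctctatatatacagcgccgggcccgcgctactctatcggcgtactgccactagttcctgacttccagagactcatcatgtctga
H2az1, chr3:137864237-137864536, plus strand: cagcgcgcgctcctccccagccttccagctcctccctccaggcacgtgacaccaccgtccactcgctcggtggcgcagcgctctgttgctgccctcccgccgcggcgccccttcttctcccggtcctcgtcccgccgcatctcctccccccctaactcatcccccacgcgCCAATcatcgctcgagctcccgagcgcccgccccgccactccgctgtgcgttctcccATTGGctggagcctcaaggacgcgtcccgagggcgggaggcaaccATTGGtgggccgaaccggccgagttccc
H2az2, chr11:6444394-6444693, minus strand: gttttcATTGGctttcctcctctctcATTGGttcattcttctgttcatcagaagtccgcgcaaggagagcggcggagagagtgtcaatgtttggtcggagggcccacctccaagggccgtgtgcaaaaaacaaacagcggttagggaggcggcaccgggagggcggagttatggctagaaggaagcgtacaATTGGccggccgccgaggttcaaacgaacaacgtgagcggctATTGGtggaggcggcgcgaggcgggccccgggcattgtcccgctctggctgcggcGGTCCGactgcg

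Of the 44 members 37 had such a promoter in the table, 26 clustered and 11 variant. H4c14, which fell, and H2bc4, which rose, had none. TATAAA occurred in 16 of 26 clustered promoters and in 0 of 11 variant ones, against 13.6% of all 32851 promoter windows of that length. CCAAT was found in 22 of 26 and 7 of 11, against 37.4% of all. The octamer ATTTGCAT stood in 9 of 26 clustered promoters, all of them of H2A or H2B genes, in 0 of 11 variant promoters and in 1.74% of all. GGTCCG stood in 6 of 6 clustered H4 promoters, in 4 of 11 variant promoters and in 8.25% of all. TTTNNCGC stood in 6 of 26 and 0 of 11, against 5.17% of all. It was present in 4 of the 9 promoters of clustered genes that fell and in 2 of the 16 of clustered genes that did not pass the test. In H1f5, which fell, and H2bc1, which did not pass, it lay after the start of the gene. These matches are short letter strings and were compared with no test. The windows of H2ac8 and H2bc8, and those of H2ac1 and H2bc1, overlap. Each of these pairs shares the same octamer, so the 9 are not all separate sites. The TATAAA match of H2ac8 is that of H2bc8 on the other strand. In H4c6 the match lies at the far end of the window, away from the start of the gene.

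Correlations between arrays over all genes were 0.997 to 0.998 within groups and 0.988 to 0.990 between them, and no array stood apart. All 6 epithelial markers (Epcam, Cdh1, Krt8, Krt18, Krt7 and Cldn4) lay above the median of all probe sets and 0 of 4 leukocyte markers (Ptprc, Cd3e, Cd79a and Itgam) did. None of the leukocyte markers passed the test. Of the epithelial markers Cdh1 and Cldn4 rose, by 1.09 and 0.89, and Krt18 and Krt7 fell by 0.50 and 0.39. Of 4 fibroblast markers 3 lay above that median, all but Dcn. Dcn and Pdgfra rose, by 2.01 and 1.5, and Col1a1 and Col1a2 had 0.18 and 0.09 and did not pass. The summed linear signal of the fibroblast list was 434 to 463 with DMSO and 1050 to 1110 with TKI258, that of the epithelial list 7680 to 8420 and 7080 to 7650. The fibroblast sum was carried mainly by Pdgfra, at a mean log2 signal of 8.33 with DMSO and 9.83 with TKI258. The part of fibroblast markers in the histone results was not tested.

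In limma at a Benjamini-Hochberg adjusted p below 0.05, 10 of 31 clustered histone genes fell after TKI258 and 2, H2bc4 and H1f2, rose. The other 19 did not pass. Over all genes tested, 12.6% fell and 14.4% rose, 27.0% in either direction. The log2 change was below 0 in 25 of 31 clustered genes, against 46.2% of all genes. The median change was -0.23, against 0.01 over all genes. Without the testis-type H1f6, H2ac1 and H2bc1 and the pseudogene H2bu1-ps, 10 of 27 fell and 2 rose, with a median of -0.26. The groups did not overlap in 15 clustered genes that were lower and 3 that were higher, against 18.8% and 21.4% of all genes. In bulk RNA, fewer cells in S phase and less histone mRNA per cell cannot be told apart. When each array was left out in turn the number that fell lay between 6 and 11, and it was 6 without DMSO replicate 3.

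**Figure D1:**
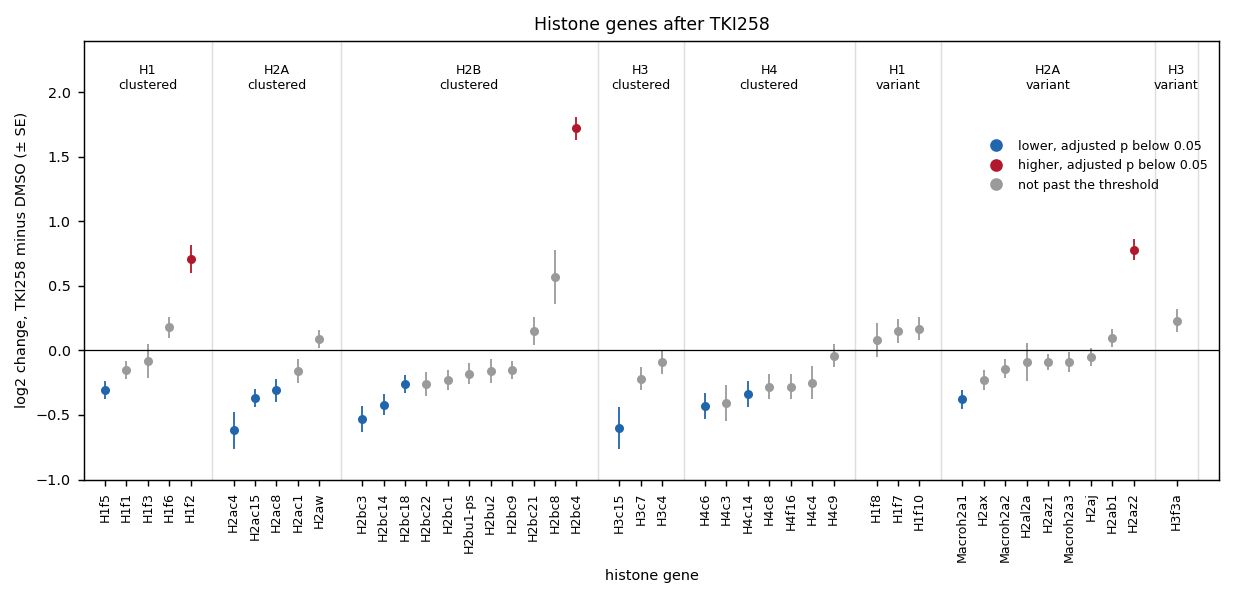
Log2 change (TKI258 minus DMSO, vertical axis, bars give the SE of limma's fit, 3 arrays per group) of the 44 histone genes, grouped by protein type and by class. Most clustered genes lie below 0, H2bc4 stands at 1.72, and H2az2 is the variant gene highest above 0 at 0.78.

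Of the 5 clustered H2A genes, which encode the core histone H2A, 3 fell and 0 rose, against 12.6% and 14.4% of all genes. H2ac4 (Hist1h2ab) read 8.71, 8.49 and 8.63 in the DMSO dishes and 7.71, 7.93 and 8.33 in the TKI258 dishes. The TKI258 arrays were all lower, with the third nearest to the controls. The log2 change was -0.62 (SE 0.14, adjusted p = 0.00932 in limma). H2ac15 (Hist1h2ak) read 9.77, 9.62 and 9.75 against 9.33, 9.28 and 9.42, without overlap, a change of -0.37 (SE 0.07, adjusted p = 0.0039 in limma). H2ac8 (Hist1h2ae) was dim, at 4.27, 4.13 and 4.41 against 4.04, 3.84 and 3.99. Its change was -0.31 (adjusted p = 0.0292 in limma), and its call was lost when DMSO replicate 1 (adjusted p = 0.0791) or 3 (0.107) or TKI258 replicate 2 (0.0978) or 3 (0.0537) was left out. H2ac1, a testis-type gene, had a change of -0.16 and H2aw (Hist3h2a) one of 0.09, with 95% intervals of -0.37 to 0.05 and -0.07 to 0.25.

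Of the 11 clustered H2B genes 3 fell and 1 rose, against 12.6% and 14.4% of all genes, and 7 did not pass. H2bc3 (Hist1h2bb) read 7.60, 7.46 and 7.43 with DMSO and 6.79, 6.96 and 7.14 with TKI258. The groups did not overlap and the change was -0.53 (SE 0.10, adjusted p = 0.00262 in limma). H2bc14 (Hist1h2bm) read 10.25, 10.06 and 10.24 against 9.75, 9.85 and 9.69. It was lower on every TKI258 array, with a change of -0.42 (SE 0.08, adjusted p = 0.00332 in limma). H2bc18 (Hist2h2bb) had 9.37, 9.25 and 9.43 against 9.15, 9.07 and 9.06, a change of -0.26 (adjusted p = 0.0229 in limma). The call of H2bc18 was lost when DMSO replicate 1 (adjusted p = 0.0811) or 3 (0.0906) or TKI258 replicate 2 (0.0662) or 3 (0.0566) was left out. Among those that did not pass, H2bc9 (Hist1h2bh) and H2bc22 had changes of -0.15 and -0.26.

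H2bc4 (Hist1h2bc) went the other way and had the largest change of the 44 histone genes. It read 7.43, 7.33 and 7.48 in the DMSO dishes and 8.95, 9.17 and 9.29 in the TKI258 dishes. The group means were 7.41 ± 0.07 (SD, n = 3) and 9.14 ± 0.17, far apart relative to their spread, a 3.3-fold rise. The log2 change was 1.72 (SE 0.09, 95% interval 1.51 to 1.93, adjusted p = 3.62e-06 in limma). Relative to H2bc14 on the same array, H2bc4 was higher by 1.97, 2.09 and 2.37 in the TKI258 dishes than in the DMSO mean. A two-sided exact permutation test of that difference over the 6 arrays gave p = 0.1, the smallest 3 against 3 arrays allow. It was not adjusted over the 3 pairs tested this way. The pair was chosen after its values were seen. The groups of both genes already lay apart in opposite directions, so that p was fixed beforehand and adds no support. H2bc8 (Hist1h2bg) varied widely with TKI258, at 6.22, 7.21 and 6.75 against 6.17, 6.02 and 6.27. The first TKI258 array lay among the controls, and the change of 0.57 (SE 0.21) did not pass (adjusted p = 0.0726 in limma). Without that array it was 0.83 and passed, at adjusted p = 0.00318.

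Of the 5 clustered H1 genes, which encode linker histones, 1 fell and 1 rose, against 12.6% and 14.4% of all genes. H1f5 (Hist1h1b) read 11.91, 11.85 and 11.95 with DMSO and 11.63, 11.50 and 11.66 with TKI258. Those groups were well separated and the change was -0.31 (SE 0.07, adjusted p = 0.0082 in limma). H1f2 (Hist1h1c) read 6.42, 6.52 and 6.68 against 7.02, 7.28 and 7.44. All TKI258 arrays were higher, a 1.63-fold rise and a log2 change of 0.71 (SE 0.11, adjusted p = 0.00131 in limma). Within an array, H1f2 relative to H1f5 was above its DMSO mean by 0.76, 1.14 and 1.15 with TKI258 (two-sided exact permutation p = 0.1, the smallest 3 against 3 arrays allow). The groups of H1f2 and H1f5 already lay apart in opposite directions, so that p was fixed beforehand and adds no support. The 3 pairs of members compared this way were chosen after their values were seen. H1f1, H1f3 and the testis-type H1f6 had changes of -0.15, -0.08 and 0.18 and did not pass.

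**Figure D2:**
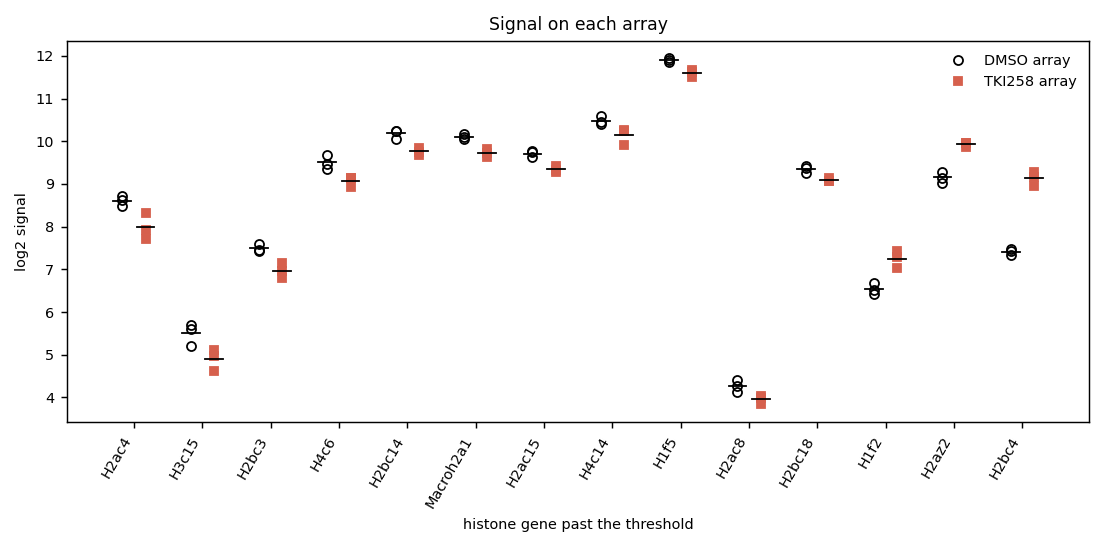
Log2 signal (vertical axis) on each of the 6 arrays for the 14 histone genes past the threshold, ordered by their change. Circles are DMSO arrays, squares TKI258 arrays and short lines group means. Signals may be compared between groups within a gene, not between genes. In none of the 14 do the 2 groups overlap, which follows largely from their choice by the threshold and is no added support.

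Of the 7 clustered H4 genes 2 fell, against 12.6% of all genes, and none had a change above 0. H4c6 (Hist1h4f) read 9.35, 9.47 and 9.69 with DMSO and 9.14, 8.92 and 9.15 with TKI258. Every TKI258 array was below the controls, with a change of -0.43 (SE 0.10, adjusted p = 0.0116 in limma). H4c14 (Hist2h4) read 10.44, 10.41 and 10.59 against 10.26, 9.91 and 10.25, a change of -0.34 (adjusted p = 0.037 in limma). Its call was lost when DMSO replicate 1 (adjusted p = 0.0719), 2 (0.0597) or 3 (0.13) or TKI258 replicate 2 (0.0872) was left out. The other 5 had changes of -0.41 to -0.04, among them H4f16 (Hist4h4) at -0.28 and H4c4 (Hist1h4d) at -0.25. Groups did not overlap in 5 of the 7, all of them lower with TKI258, against 18.8% of all genes.

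Only 3 clustered H3 genes had probe sets of their own. H3c15 (Hist2h3c2) read 5.20, 5.60 and 5.70 with DMSO and 4.61, 5.12 and 4.98 with TKI258, just without overlap. The change was -0.60 (SE 0.16, adjusted p = 0.0184 in limma), and the call was lost when DMSO replicate 2 (adjusted p = 0.0621) or 3 (0.0719) or TKI258 replicate 1 (0.0529) was left out. H3c7 and H3c4 had changes of -0.22 and -0.09 and did not pass. Without DMSO replicate 2, H3c7 passed at -0.32 (adjusted p = 0.0307 in limma).

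Calls of 6 of the 10 clustered genes that fell held with each array left out (H2ac4, H2ac15, H2bc3, H2bc14, H4c6 and H1f5), as did those of both that rose. By cluster, 7 of 23 Hist1 genes, 3 of 4 Hist2 genes, 0 of 3 Hist3 genes and 0 of 1 Hist4 gene fell. The share over all genes was 12.6%. Both genes that rose belong to Hist1. In the order of clustered histone genes along chromosome 13 they are separated by H1f6 and H4c3, which did not pass, at 0.18 and -0.41. The next members with a probe set of their own after H1f2 are H2bc3 and H2ac4, which were among those that fell furthest. H2ac8 and H2bc8 are divergent neighbours whose 300-base promoter windows share 279 bases. H2ac8, which was dim, had a change of -0.31 and a call that was lost in several fits with an array left out. H2bc8 had 0.57 and did not pass. The gene models of H2bc22, H2bc4 and H2bc21 are the longest among clustered members, at 14079, 8282 and 2667 bases in RefSeq, and their changes were -0.26, 1.72 and 0.15. H1f2 has a model of 725 bases.

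**Figure D3:**
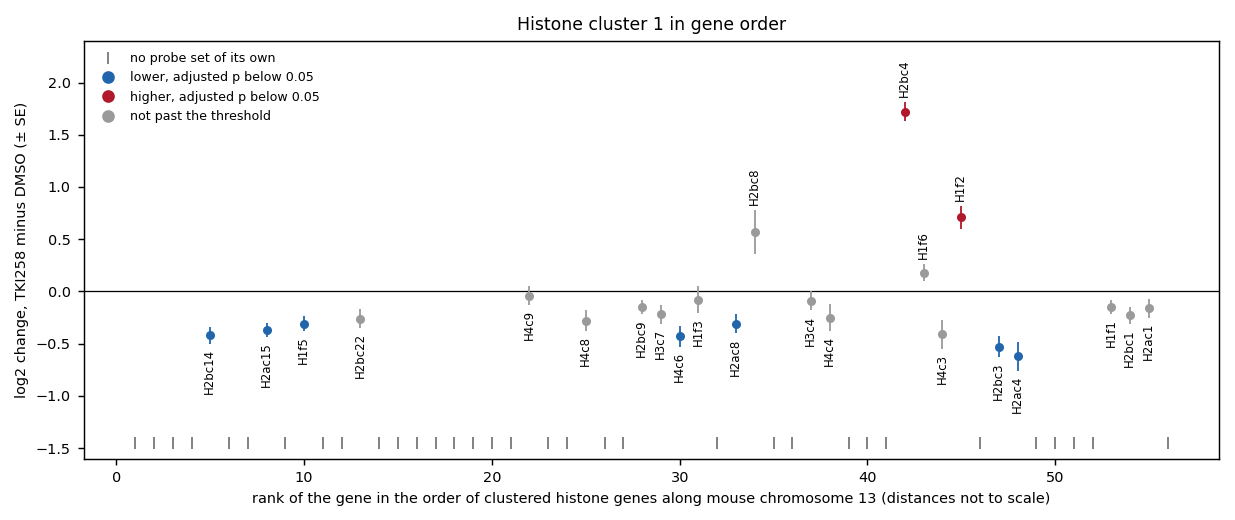
Log2 change (vertical axis, ± SE of limma's fit) of the clustered histone genes of chromosome 13, placed by their rank along the chromosome and not by distance. Ticks at the bottom are genes without a probe set of their own. Genes that rose (H2bc4, H1f2) and genes that fell (H2bc3, H2ac4) lie within a few ranks of each other.

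Probe sets shared by several clustered genes cover most of the genes missing above, and none passed. Tested singly among all 35557 probe sets, of which 7.86% were lower and 7.91% higher, 0 of 24 distinct probe sets shared by histone genes alone passed in limma. Their changes ranged from -0.24 to 0.21, with a median of -0.18. The 10 sets that read 12 H3 genes each had changes of -0.19 to -0.15. For the 6 distinct H2B sets the changes were -0.23 to -0.18, for the 4 distinct sets of 11 H4 genes -0.24 to -0.19, and for the 2 H2A sets -0.19 and -0.18. One H2B set, for example, read 11.57, 11.46 and 11.59 with DMSO and 11.36, 11.21 and 11.37 with TKI258, with an adjusted p of 0.0924 in limma. In 20 of the 24 the TKI258 arrays all lay below the DMSO arrays, against 16.7% of all probe sets, but these sets read largely the same transcripts and are not independent. Both H2A sets also list the variant gene H2ax and the H3 gene H3c4, and 1 of them lists H2aj. The probe set of H2bc6 and H1f4 had a change of -0.04 and that of H4c17 and H4c11 one of 0.21 (95% interval -0.35 to 0.77). Where clustered genes are near-identical, single-symbol probe sets may also read their copies.

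**Figure D4:**
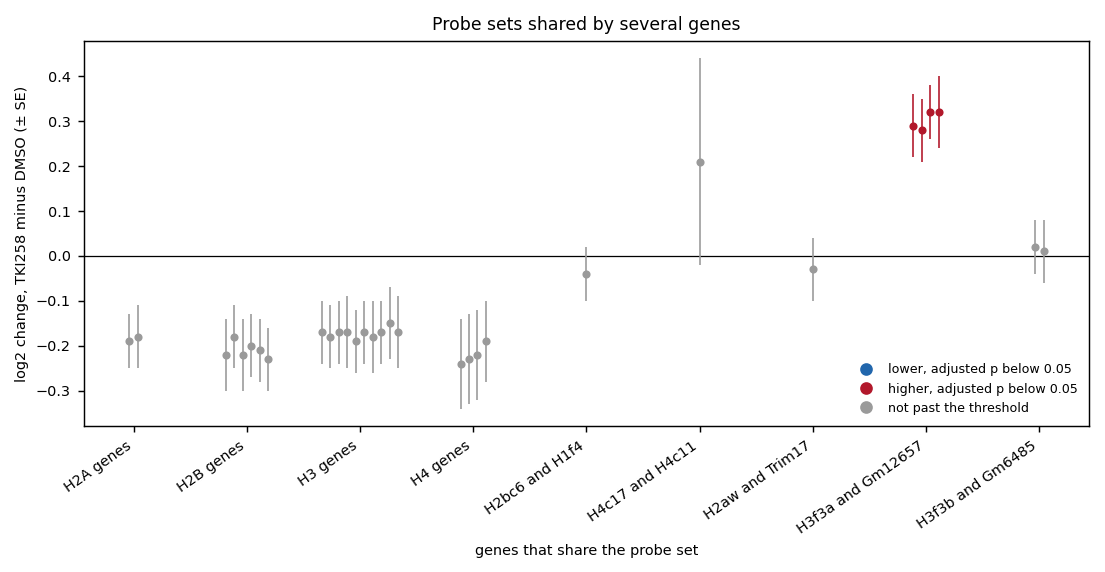
Log2 change (vertical axis, ± SE of limma's fit over all probe sets) of probe sets that carry several gene symbols, 1 point per distinct probe set, by the genes they share. The sets of many H2A, H2B, H3 or H4 genes lie between -0.24 and -0.15, the set of H2bc6 and H1f4 at -0.04, that of H4c17 and H4c11 at 0.21, and those of H3f3a with Gm12657 between 0.28 and 0.32.

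Of 13 variant histone genes 1 rose and 1 fell, against 14.4% and 12.6% of all genes, and 11 did not pass. The median change was -0.05, and 5 of the 13 were dimmer than the median probe set. H2az2 (H2afv) and H2az1 (H2afz) encode both forms of H2A.Z, a variant placed at gene starts. H2az2 read 9.03, 9.14 and 9.29 with DMSO and 9.96, 9.87 and 9.97 with TKI258. Every TKI258 array was higher, with group means of 9.15 ± 0.13 (SD, n = 3) and 9.94 ± 0.06, a 1.72-fold rise. The log2 change was 0.78 (SE 0.08, adjusted p = 0.000108 in limma). H2az1 read 12.02, 11.94 and 12.06 against 11.90, 11.90 and 11.96. Its groups overlapped and its change of -0.09 (95% interval -0.23 to 0.05) did not pass, with -0.10 at its second probe set. Within an array, H2az2 relative to H2az1 was above its DMSO mean by 0.92, 0.83 and 0.87 with TKI258 (two-sided exact permutation p = 0.1, the smallest 3 against 3 arrays allow). This pair was also chosen after its values were seen, so the test adds no support.

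Macroh2a1 (H2afy), which encodes the large H2A variant macroH2A, was the variant gene that fell. It read 10.05, 10.11 and 10.16 with DMSO and 9.72, 9.63 and 9.83 with TKI258. The groups were separate and the change was -0.38 (SE 0.07, adjusted p = 0.00392 in limma). Macroh2a2, at -0.14, and the pseudogene Macroh2a3, at -0.09, did not pass. Both were below the median of all probe sets. H2ax (H2afx), whose product is phosphorylated at DNA breaks, read 9.93, 9.91 and 10.07 against 9.72, 9.64 and 9.84. Every TKI258 array was lower, but the change of -0.23 did not pass (adjusted p = 0.0551 in limma). Without TKI258 replicate 3 it was -0.28 and passed, at adjusted p = 0.029. H2aj had a change of -0.05, with a 95% interval of -0.21 to 0.11.

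H3f3a and H3f3b both encode H3.3, the H3 variant placed outside replication. H3f3a's only single-symbol probe set was dim, at 3.51, 3.47 and 3.72 with DMSO and 3.77, 3.69 and 3.94 with TKI258. The groups overlapped and its change of 0.23 did not pass (adjusted p = 0.098 in limma), while without DMSO replicate 3 it was 0.31 and passed (adjusted p = 0.0432). All 4 probe sets that list H3f3a with the predicted gene Gm12657 were higher, against 7.91% of all probe sets. Their changes were 0.28 to 0.32 (adjusted p from 0.02 to 0.0384 in limma), and they read largely the same transcript. One of them read 10.94, 10.99 and 11.06 against 11.29, 11.27 and 11.39. With each array left out in turn, an alternative chosen after the data were seen, 0 passed when the array left out was the first or second DMSO array or the first TKI258 array, and 1 passed when it was any other. The 2 probe sets that list H3f3b with Gm6485 had changes of 0.01 and 0.02, with 95% intervals between -0.16 and 0.18.

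Of the linker variants, H1f10 (H1fx) had a change of 0.17 and the germ-cell genes H1f7 and H1f8 changes of 0.15 and 0.08. The germ-cell H2A genes H2ab1 and H2al2a had 0.10 and -0.09. H2al2a is a member only because the older symbol H2afb1 is also listed for it. None of these passed. All 7 testis or germ-cell members of both classes together had changes of -0.23 to 0.18.

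Set side by side, the median log2 change was -0.23 for clustered and -0.05 for variant genes, a difference of -0.17, which was not tested. Measured from the DMSO mean of each gene, the clustered medians on the TKI258 arrays were -0.21, -0.29 and -0.12. On the DMSO arrays they were 0.01, -0.08 and 0.07, so the groups did not overlap. Variant medians were -0.10, -0.11 and 0.06 with TKI258 and -0.04, -0.01 and 0.05 with DMSO, which overlap. The difference of the class medians was -0.23 without DMSO replicate 1 and -0.27 without DMSO replicate 2.

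Of 10 measured genes listed for histone gene transcription 6 fell and 0 rose, against 12.6% and 14.4% of all genes. The median change was -0.40. Hira, also in the H3.3 deposition list below, was among the 6, at -0.21. With each array left out in turn 5 to 6 of the 10 fell. The 4 that did not pass, Npat, Hinfp, Gon4l and Yy1, had changes of -0.25 to -0.10. Ccne2 and Ccne1, the cyclin E genes, fell by 1.19 and 0.93, Cdc25a, a phosphatase that activates CDK2, fell by 0.77 and Cdk2 by 0.55 (adjusted p from 1.13e-05 to 0.000295 in limma). Casp8ap2, which encodes FLASH, an NPAT partner in histone mRNA synthesis, fell by 0.55. Npat itself had a change of -0.25 (SE 0.09) and did not pass (adjusted p = 0.0678 in limma). It passed without DMSO replicate 3, at -0.33 (adjusted p = 0.0297), and with the arrays centred on their medians, at -0.28 (adjusted p = 0.0417).

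Of 18 genes for histone mRNA 3′ processing and decay 11 fell and 2 rose, against 12.6% and 14.4% of all genes. The median was -0.29. Slbp, the stem-loop binding protein gene, fell from 10.07 ± 0.05 (SD, n = 3) to 9.57 ± 0.10, a change of -0.50 (SE 0.07, adjusted p = 0.00071 in limma). Lsm11, a subunit of the U7 snRNP that directs the cut, fell by 0.79, while Lsm10, its partner, rose by 0.44 (SE 0.08, adjusted p = 0.0032 in limma). Eri1, an exonuclease that trims histone mRNA ends, fell by 0.47, and the cleavage factor gene Cstf2 by 0.50. Tut7, a uridylyltransferase gene, rose by 0.42.

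Chaperones that bring new histones to the replication fork were listed with other genes of histone supply and replication, among them Pcna, Mcm2, Ipo4 and Hat1. Of these 14 genes 10 fell and 0 rose, against 12.6% and 14.4% of all genes. The median was -0.42. Pcna, Mcm2 and Ipo4 were among those that fell, by 0.39, 0.48 and 0.40. Nasp, the H3-H4 carrier gene, fell by 0.74 (SE 0.06, adjusted p = 3.6e-05 in limma), Asf1b by 0.67, the acetyltransferase gene Hat1 by 0.54, Dnajc9 by 0.47 and Chaf1a, the large CAF-1 subunit gene, by 0.47. Asf1a, the paralog of Asf1b, had a change of 0.01, and Rbbp4 and Rbbp7 had 0.03 and -0.09. Those 3 did not pass.

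Of 9 genes for H3.3 deposition 3 fell and 0 rose, against 12.6% and 14.4% of all genes. Dek fell by 0.37 and Chd1 by 0.34, and Hira, the core subunit of the H3.3 chaperone, by 0.21 (adjusted p = 0.0399 in limma). The call of Hira was lost with any array left out, at adjusted p from 0.0502 to 0.13, and that of Chd1 without DMSO replicate 2 (adjusted p = 0.0501). Without DMSO replicate 2, 1 of the 9 fell. Daxx and Atrx, the other H3.3 chaperone pair, had -0.09 and 0.12. Of 15 genes for H2A.Z exchange 6 fell and 1 rose, against the same shares of all genes, with a median of -0.16. The ATPase genes Ruvbl2 and Ruvbl1 fell by 0.65 and 0.53, Actr6 by 0.62, Ino80 by 0.37 and Anp32e, which removes H2A.Z, by 0.36. Vps72 rose by 0.23, a call that was lost with the arrays centred on their medians. It was also lost without DMSO replicate 1 or 2 or TKI258 replicate 1, where 0 of the 15 rose. Srcap and Ep400, the exchange motors, had 0.04 and 0.08 and did not pass.

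Cenpa, the centromeric H3 variant gene, lies outside the symbol rule. It fell by 0.25 (SE 0.08, adjusted p = 0.0358 in limma), and so did the 4 measured genes that load or bind its product, Mis18a by 0.62, Oip5 by 0.53, Cenpn by 0.42 and Cenpc1 by 0.22. The call of Cenpa was lost without any 1 array except TKI258 replicate 3, at adjusted p from 0.0574 to 0.116. In each of those 5 fits 3 of the 5 genes fell, where 12.6% of all genes fell in the full fit. Of 7 general assembly genes 4 fell and 0 rose, against 12.6% and 14.4% of all genes. Those that fell were Ncl by 0.39, Nap1l1 by 0.37, Npm1 by 0.32 and the FACT subunit gene Supt16 by 0.31. The call of Nap1l1 was lost when DMSO replicate 1 (adjusted p = 0.0665), 2 (0.0982) or 3 (0.0638) was left out, and without TKI258 replicate 1 its change was -0.24.

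**Figure D5:**
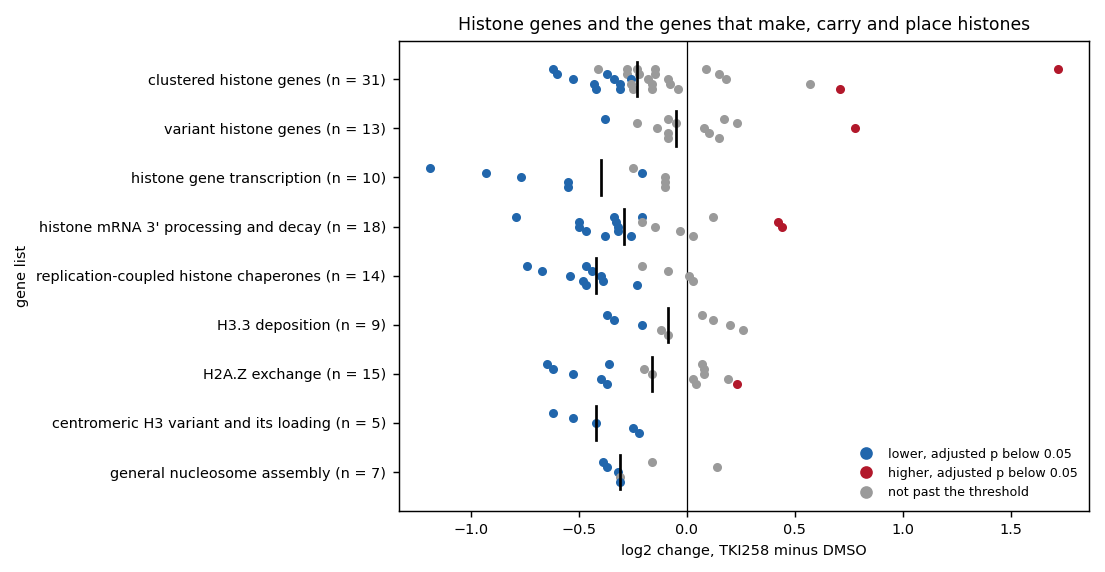
Log2 change (horizontal axis, TKI258 minus DMSO) of clustered and variant histone genes and of 7 gene lists of the histone pathway, 1 point per gene. Vertical bars are list medians. The chaperone and centromere lists have medians of -0.42, the clustered genes -0.23 and the variant genes -0.05.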

How the data were processed

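The deposited table holds 1 log2 value per probe set and array, made by the authors. RMA, affy and limma are named per the submitters' processing notes, without version or role. The scale was taken as log2 from its range. RMA as usually run sets all arrays to 1 distribution, so a change common to every gene would not show. Array medians were 4.97 to 5.04. Precision is limited by the 3 arrays per group.

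Of 35557 probe sets 21789 carried 1 symbol in the platform annotation of 2016. Each gene took its brightest such probe set. Older symbols came through gene IDs from a RefSeq table of GRCm38.p6, used for names, gene order and gene length. Clustered and variant classes follow the older symbol. Limma 3.58.1 (R 4.3.3, lmFit, eBayes) was fitted with treatment alone on all 19938 genes, two-sided, Benjamini-Hochberg threshold 0.05, unfiltered. Intervals are 95%.

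On data simulated for TKI258 against DMSO over 19938 genes, limma recovered 2 of 50 genes changed by a log2 of 0.25, 30 of 50 at 0.5, 49 of 50 at 1 and 50 of 50 at 2, with 5 false calls. No other genes were changed, so the cut-off was stricter than in the data, where 27.0% of genes passed.

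Members and gene lists were chosen with earlier results of these data known, so classes and lists are given as counts and medians. The text names all variant members, clustered members past the threshold, the 2 brightest others per protein type, up to 4 genes per list with the smallest adjusted p, and Npat, Slbp, Cenpa, Chaf1a, Asf1b, Hira and Anp32e. Other genes were named after their values were seen. Dishes are labelled biological replicates of 1 cell line, so p-values measure the spread between dishes. Alternatives are in the closing section.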

Additional observations from a re-analysis of the deposited data

Results flagged for a closer look

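The 4 probe sets that list H3f3a with the predicted gene Gm12657 stand outside the gene-level comparison, because they carry 2 symbols, and were singled out because they were higher on every TKI258 array than on any DMSO array. Their log2 changes were 0.29, 0.28, 0.32 and 0.32. All 4 passed in limma over all probe sets, of which 7.91% were higher. They read largely the same transcript, and how their signal divides between H3f3a and Gm12657 was not measured. With the replicate number as a block or with the arrays centred on their medians, fits chosen after the data were seen, 1 of the 4 passed.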

How the results depend on the processing

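The alternatives were followed for the 65 genes that the naming rule gave, not for genes named after their values were seen. Of those 65, 43 were past the threshold. None of the 43 changed sign in the 13 alternatives fitted, and 32 stayed past it in all. Of clustered histone genes 5 fell at an adjusted p below 0.01, and 6 did when probe sets were tested singly with the shared ones added, where more features were tested. With symbols taken as they stand, an alternative chosen after seeing the data, 5 clustered genes were left, 1 lower and 1 higher. With arrays left out the clustered count lower ranged from 6 to 11 and the variant counts from 1 to 2 in each direction. With the replicate number as a block 2 variant genes rose and 2 fell, and 1 H3.3 deposition gene rose. Same-numbered arrays had correlated deviations of 0.0181, 0.0501 and 0.151, and 2 were under 0.1, so the numbers were not taken to pair the dishes, and not every array correlated best with its own number. For clustered genes the block gave 12 lower and 2 higher.

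Without dim genes 2 variant genes fell, 2 H3.3 deposition genes rose, the difference of class medians was -0.27 and the processing list's median -0.32. With trend and robust 2 variant genes fell and 2 H3.3 deposition genes rose. Counting H2ax as clustered gave a difference of -0.24. With arrays left out that difference ranged from -0.27 to -0.15. At an adjusted p below 0.01, the counts were 1 lower for H3.3 deposition, 0 higher for H2A.Z exchange, 2 lower for the centromeric list and 2 lower for general assembly. Median centring gave 0 higher for H2A.Z exchange and medians of -0.42 for transcription and -0.31 for processing. Renewed quantile normalization gave -0.39 and -0.25. With arrays left out, the transcription median ranged from -0.43 to -0.36, the processing median from -0.30 to -0.26, H3.3 deposition counts from 1 to 2 lower and 0 to 1 higher, H2A.Z exchange from 0 to 1 higher, and the centromeric count from 3 to 5 lower. The cause of these shifts was not tested. Precision is limited by the 3 arrays per group. The simulated recovery above does not set the size of change that could be seen. Far fewer genes were changed there than the 27.0% that passed in the data.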
